A study of Mus musculus with 10 samples.

Results

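The arachidonic acid pathway around Alox5 was examined in the hippocampus of mice that overexpress PGC-1α in neurons. The set holds 10 genes, Pla2g4a, Alox5, Alox5ap, Ltc4s, Lta4h, Alox12, Alox15, Ptgs1, Ptgs2 and Ptges, which 14 of the 56605 array probes measured through their RefSeq accessions. Alox5 entered the set because its signal was higher on the nPGC-1α arrays, so its difference is given as a description and was not tested. The other 9 genes were taken for their place in the pathway, and the comparison asks whether they differed in the same way. The Alox5 level was 1.52-fold higher in nPGC-1α mice with no overlap between the groups. None of the 11 tested probes of the others, which measured 8 of the 9 genes, passed the test at an adjusted p of 0.05. Over the whole array 1 of 39142 tested probes passed it (0.00255%), so not passing does not set these genes apart.

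Arachidonic acid is released from membrane phospholipids by cytosolic phospholipase A2, the product of Pla2g4a, and is then divided between lipoxygenases and cyclooxygenases. 5-lipoxygenase, the product of Alox5, takes the acid from its partner protein FLAP, the product of Alox5ap, and makes leukotriene A4, which Lta4h turns into leukotriene B4 and Ltc4s into leukotriene C4. Leukotriene B4 attracts neutrophils, and 5-lipoxygenase itself is abundant in neutrophils, mast cells and macrophages and present at a low level in neurons. Cyclooxygenases, the products of Ptgs1 and Ptgs2, make the precursor of prostaglandins, and Ptgs2 is known in the hippocampus as a gene of excitatory neurons induced by activity.

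The promoters of Alox5 and Alox12 are shown because both genes encode lipoxygenases at a low level in these samples, while the groups were apart for Alox5 and overlapped for Alox12. The windows run from 250 bases before to 50 after the RefSeq start of each gene (build GRCm38.p6, minus strand), 5′ to 3′, with each GC box (GGGCGG, searched on both strands) in capitals.
Alox5, chr6:116461129-116461428: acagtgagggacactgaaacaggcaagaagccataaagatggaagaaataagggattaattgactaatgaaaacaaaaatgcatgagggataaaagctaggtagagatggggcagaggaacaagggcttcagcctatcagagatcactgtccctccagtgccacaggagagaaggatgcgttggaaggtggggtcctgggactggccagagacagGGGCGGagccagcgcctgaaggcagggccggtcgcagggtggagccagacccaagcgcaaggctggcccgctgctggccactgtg
Alox12, chr11:70255321-70255620: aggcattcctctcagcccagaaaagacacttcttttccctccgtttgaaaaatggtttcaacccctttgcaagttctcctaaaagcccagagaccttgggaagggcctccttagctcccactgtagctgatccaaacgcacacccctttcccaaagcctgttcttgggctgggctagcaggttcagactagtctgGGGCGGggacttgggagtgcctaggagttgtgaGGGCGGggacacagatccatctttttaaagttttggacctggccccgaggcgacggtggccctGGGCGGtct
The Alox5 window held 1 GC box, 35 bases before the start, and 55.7% of its bases were G or C. The Alox12 window held 3, of which 1 began 41 bases after the start. Entries were found for 8 of the 10 genes and not for Alox5ap and Alox15, and GC boxes were also found for Ptgs2 and Ptges. Of all 32851 promoter windows of this length, 35.7% held a GC box. The element of the estrogen-related receptors (TNAAGGTCA, both strands), which PGC-1α coactivates, was found in 0 windows of these genes and in 1.28% of all windows.

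Total RNA of the hippocampus was hybridised to 1-colour (Cy3) Agilent mouse arrays, with 1 array per mouse. All 10 mice carry a PGC-1α transgene in the Rosa26 locus behind a loxP-flanked stop cassette on a C57BL/6 background, and are labelled as males of 12 weeks under basal conditions. The 5 PGC-1αf/f mice lack Cre and keep the transgene silent, and the 5 nPGC-1α mice also carry Eno2-Cre, whose neuronal promoter drives removal of the cassette and thereby expression of PGC-1α with eGFP. The labels give the cell type as neuron, but the RNA came from whole tissue, and every listed marker of astrocytes, oligodendrocytes and microglia was well above background on at least 1 array. A level is the log2 processed intensity minus that of the 75th percentile of the array, so that 0 is that percentile, and a difference is nPGC-1α minus PGC-1αf/f.

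Several facts of the arrays bear on every value. The Ppargc1a probe A_51_P279038 had levels of 2.06 to 2.34 over the 10 arrays and a group mean of 2.20 in both groups. The labels were thus not set apart by the signal of this probe. It is not known from the sources used here whether the probe detects transcripts of the transgene. By Western blot, the paper reports more PGC-1α in nPGC-1α mice. Y-linked transcripts were detected on 4 arrays, replicate 1 of the PGC-1αf/f group and replicates 1, 3 and 5 of the nPGC-1α group, and were not well above background on the other 6, against the label of male. The share of gene spots well above background was 74.5% to 81.5% per PGC-1αf/f array and 67.2% to 73.4% per nPGC-1α array. The floor, the lowest signal well above background, lay at a level of -7.51 to -6.56 in the PGC-1αf/f group and -6.62 to -5.75 in the nPGC-1α group. Slide 1 held replicates 1 to 4 of each group, and slide 2 held the replicates 5. On slide 1 the PGC-1αf/f arrays lay in row 1 and the nPGC-1α arrays in row 2, so group and row cannot be told apart there. The additive error estimated per array was 5.16 to 8.98 in the PGC-1αf/f group and 10.71 to 20.87 in the nPGC-1α group. Of the 39142 probes tested with limma, 1 passed an adjusted p of 0.05 (0.00255%), and 4662 had an unadjusted p under 0.05 (11.9%), of which 1328 were higher in nPGC-1α mice (3.39%) and 3334 lower (8.52%).

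Pla2g4a, which encodes the phospholipase at the head of the pathway, did not pass the test. Its level was -1.46, -1.42, -2.10, -1.93 and -1.95 in PGC-1αf/f replicates 1 to 5. It was -1.65, -1.45, -1.70, -1.81 and -1.92 in nPGC-1α replicates 1 to 5. Every nPGC-1α value lay within the range of the PGC-1αf/f group. The difference was 0.07 (SE 0.15, limma adjusted p = 0.883).

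Alox5, measured by 1 probe (A_51_P247249), had a level of -4.08, -4.33, -4.47, -4.46 and -4.15 in PGC-1αf/f replicates 1 to 5. It was -3.78, -3.75, -3.51, -3.68 and -3.74 in nPGC-1α replicates 1 to 5. All nPGC-1α arrays lay above all PGC-1αf/f arrays, with 0.30 between the nearest values, and among probes with 10 values 0.709% were apart in this direction. The means were -4.30 ± 0.18 and -3.69 ± 0.11 (SD, n = 5 each), a difference of 0.60 (SE 0.10). Differences at least as high were found for 1.56% of all probes tested. As the gene was chosen on this difference, nothing is read from these shares.

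The Alox5 difference was also described within subsets of the arrays. It was 0.65 on slide 1 and 0.41 between the replicates 5 on slide 2. Between arrays with Y-linked signal it was 0.40, with 1 PGC-1αf/f array, and between those without it was 0.64. The probe was well above background on all 10 arrays, by 2.24 to 3.29 over the floor of its array, and its lowest level of -4.47 was above the highest floor of -5.75. The floor was higher on nPGC-1α arrays as well, and its part in the difference was not tested. Normexp background correction with quantile normalisation gave 0.42.

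**Figure D1:**
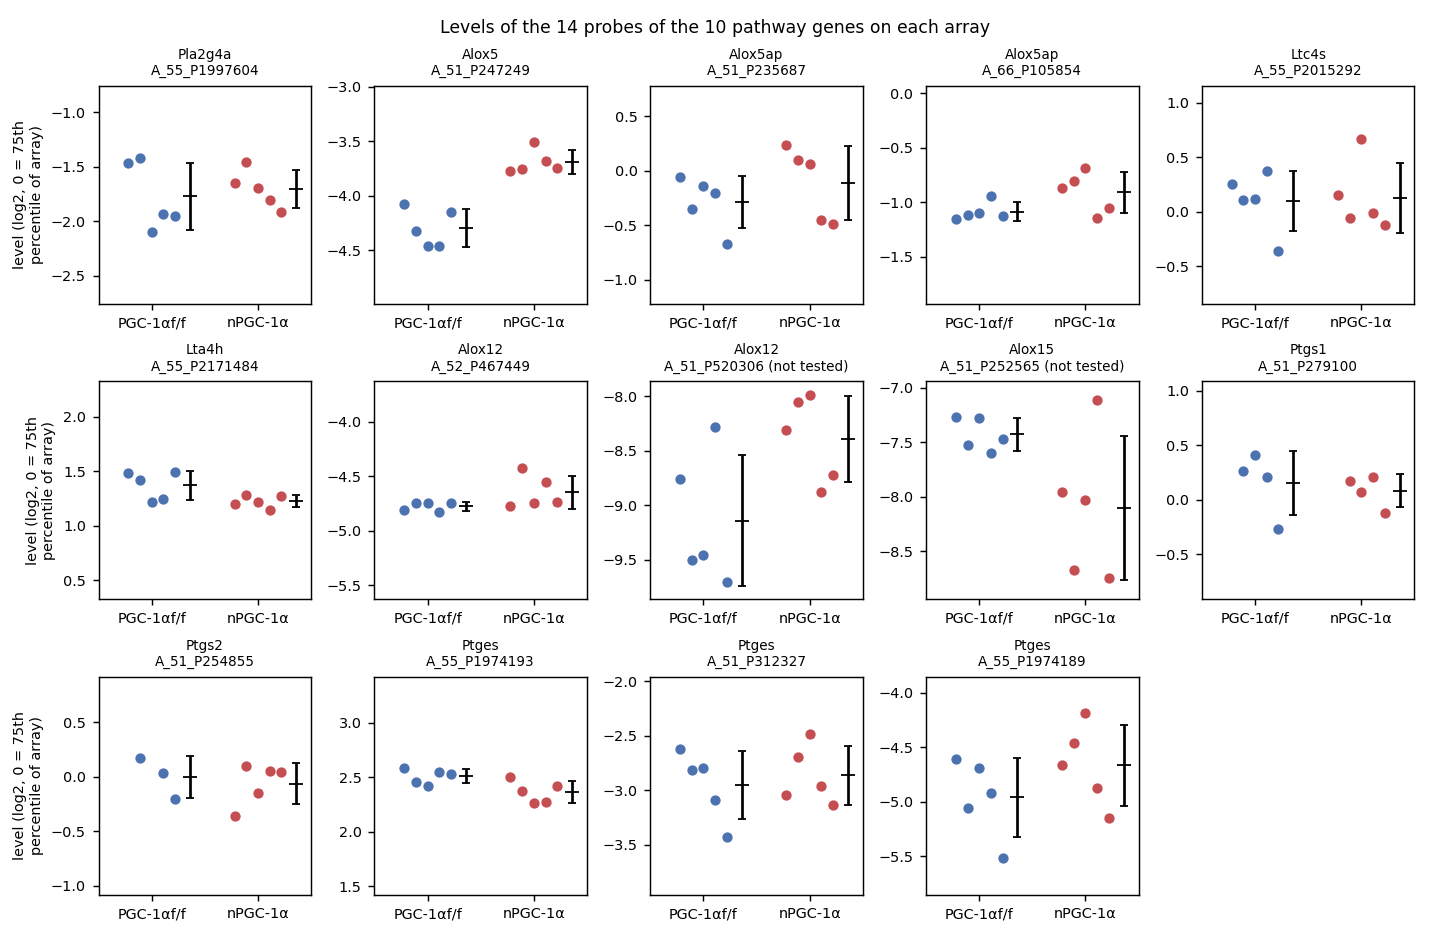
Levels (log2, 0 = 75th percentile of the array) of the 14 probes of the 10 genes, 1 panel a probe, with 1 point per array in the order of the replicates (blue PGC-1αf/f, red nPGC-1α) and bars for mean ± SD; every panel spans at least 2 log2 units, and values left out as outlier spots are not drawn. The groups are apart for Alox5 (-4.47 to -4.08 against -3.78 to -3.51) and overlap in the other 13 panels.

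The partners of 5-lipoxygenase did not pass the test. Alox5ap, which encodes the protein that hands arachidonic acid to the enzyme, was measured by 2 probes with the same difference of 0.18. Probe A_51_P235687 gave levels of -0.06, -0.35, -0.14, -0.21 and -0.68 in PGC-1αf/f replicates 1 to 5 and of 0.23, 0.10, 0.06, -0.46 and -0.49 in nPGC-1α replicates 1 to 5. Probe A_66_P105854 gave -1.16, -1.12, -1.09, -0.94 and -1.13 against -0.87, -0.80, -0.69, -1.15 and -1.05. On both probes nPGC-1α replicates 1 to 3 lay above every PGC-1αf/f array and replicates 4 and 5 within that group's range. The SE was 0.17 and 0.10, and the limma adjusted p 0.700 and 0.526.

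The enzymes that use leukotriene A4 had small differences of opposite sign. Lta4h, the leukotriene B4 synthase, had levels of 1.48, 1.42, 1.21, 1.24 and 1.49 in PGC-1αf/f mice and 1.20, 1.28, 1.22, 1.15 and 1.27 in nPGC-1α mice. Its difference was -0.15 (SE 0.09, limma adjusted p = 0.536), and 2 PGC-1αf/f arrays lay among the nPGC-1α values. Ltc4s, the leukotriene C4 synthase, had levels of 0.25, 0.10, 0.12, 0.37 and -0.36 against 0.15, -0.05, 0.67, -0.01 and -0.12. Its difference was 0.03 (SE 0.18, limma adjusted p = 0.957). The highest Ltc4s level of each group was on replicate 4 of the PGC-1αf/f group and replicate 3 of the nPGC-1α group, the arrays with the highest scores of 8 choroid plexus markers (1.72 and 2.34, as mean log2 deviations), and the part of that tissue was not tested.

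The lipoxygenases that act at other carbons, Alox12 and Alox15, had dim probes. Alox12, the lipoxygenase of platelets, had levels of -4.81, -4.75, -4.74, -4.83 and -4.75 in PGC-1αf/f mice and -4.77, -4.42, -4.75, -4.55 and -4.74 in nPGC-1α mice on probe A_52_P467449. Replicates 2 and 4 of the nPGC-1α group were the high arrays. The difference was 0.13 (SE 0.09, limma adjusted p = 0.595). All 4 tested platelet markers had higher means in nPGC-1α mice, as did 15977 of all 39142 probes. With an unadjusted limma p under 0.05 there were 0 of them, beside 3.39% of all probes in this direction. The part of platelets was not tested. The platelet scores were -0.34 to 0.05 against -0.10 to 0.69 (exact permutation p = 0.151), with nPGC-1α replicate 4 at -0.06. The highest score, on nPGC-1α replicate 2, came from Treml1 (-1.28 there and -4.02 to -3.61 on the other arrays), and Gp1ba was not well above background on any array. The second Alox12 probe was not well above background on any array. Alox15, the lipoxygenase of macrophages and eosinophils, was well above background only on PGC-1αf/f replicate 3, so neither of these probes has a fold.

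The cyclooxygenase branch did not pass the test either. Ptgs1, the constitutive cyclooxygenase, had levels of 0.27, 0.41, 0.21 and -0.27 in PGC-1αf/f replicates 2 to 5 and 0.18, 0.07, 0.21 and -0.12 in nPGC-1α replicates 2 to 5. Ptgs2, the inducible cyclooxygenase, had 0.18, 0.03 and -0.21 in PGC-1αf/f replicates 2, 4 and 5 and -0.36, 0.10, -0.15, 0.05 and 0.04 in nPGC-1α replicates 1 to 5. The missing values were outlier spots, and the fits dropped them. The differences were -0.07 for Ptgs1 (SE 0.16, limma adjusted p = 0.886) and -0.06 for Ptgs2 (SE 0.14, limma adjusted p = 0.883), and both were -0.12 with these spots kept. Of 12 immediate early genes, the class of activity-induced genes to which Ptgs2 belongs, 10 had higher means in nPGC-1α mice. Their scores were -0.73 to 0.21 against -0.02 to 0.27 (exact permutation p = 0.159). Ier2 alone did not overlap between the groups (difference 0.48, SE 0.11, limma adjusted p = 0.136). Groups were apart in that direction for 0.709% of all probes with 10 values.

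Ptges, the inducible prostaglandin E synthase, was measured by 3 probes that differed in sign. The brightest, A_55_P1974193, had levels of 2.58, 2.46, 2.42, 2.55 and 2.53 against 2.50, 2.38, 2.26, 2.27 and 2.42. Its difference was -0.14 (SE 0.08, limma adjusted p = 0.517), with 4 nPGC-1α arrays below all PGC-1αf/f arrays, of which replicate 5 was lower only beyond the second decimal. The dimmer probes A_51_P312327 and A_55_P1974189 gave 0.09 (SE 0.17, limma adjusted p = 0.859) and 0.29 (SE 0.21, limma adjusted p = 0.602). No direction can therefore be given for this gene.

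Of the 9 genes other than Alox5, Alox15 was not tested and the other 8 had 11 tested probes, of which 0 passed the adjusted threshold and 0 had an unadjusted p under 0.05, beside 0.00255% and 11.9% of all probes. The means were higher in nPGC-1α mice for 7 and lower for 4, with a median difference of 0.07 beside -0.04 over all probes, and 0 had groups that did not overlap, beside 2.74%. The folds were 1.02 to 1.23. The limma 95% intervals of 10 probes had upper bounds of at most 0.56, and that of Ptges probe A_55_P1974189 reached 0.75. With 5 arrays per group, differences inside these intervals could not be told from 0.

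**Figure D2:**
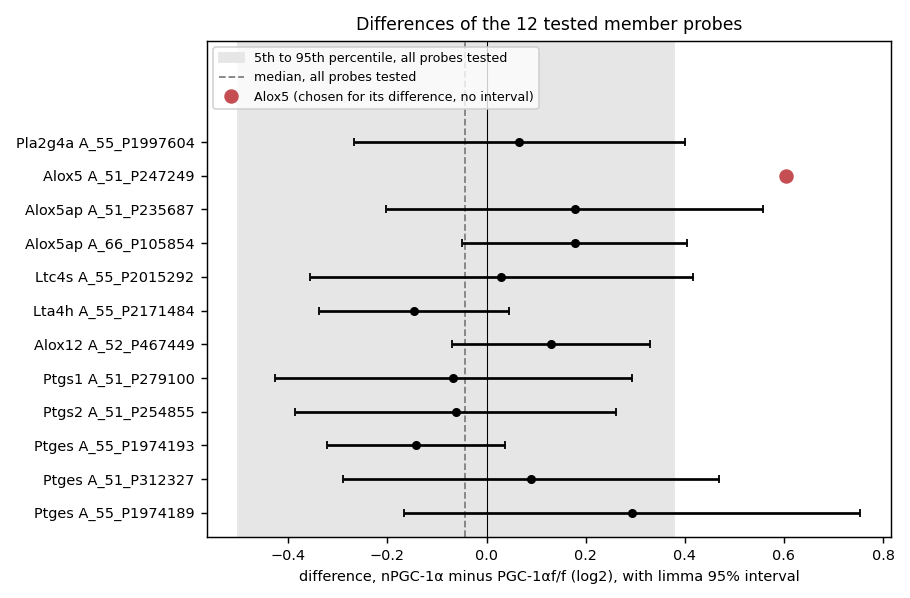
Difference of each of the 12 tested probes (nPGC-1α minus PGC-1αf/f, log2) with limma 95% intervals (none is drawn for Alox5), over the 5th to 95th percentile of all 39142 probes (grey, -0.50 to 0.38) and their median (dashed, -0.04). The 11 probes other than Alox5 lie between -0.15 and 0.29 inside the grey band, and each of their intervals includes 0.

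Further genes of the pathway were taken from a list of 64, of which 48 were tested. At 1 probe a gene, 0 passed the adjusted p and 5 had an unadjusted p under 0.05, 3 higher and 2 lower, which is 10.4% of the 48 beside 11.9% of all probes. The median difference was -0.02. Over all their 60 tested probes the counts were 4 and 3.

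The lowest p in the list belonged to Abcc1, the transporter that exports leukotriene C4. Its level was -2.08, -1.86, -1.40, -1.78 and -1.99 in PGC-1αf/f mice and -2.48, -2.14, -2.71, -2.56 and -2.69 in nPGC-1α mice. All nPGC-1α arrays lay below all PGC-1αf/f arrays, as they did for 2.03% of all probes with 10 values. The difference was -0.70 (SE 0.15, limma adjusted p = 0.130). It was -0.69 on slide 1 and -0.71 between the replicates 5. It passed the adjusted threshold only where no filter on dim probes was set (limma adjusted p = 0.0289). Its unadjusted limma p was 0.0012 there and 0.00073 with the filter. Ptgr1, which inactivates leukotriene B4 and prostaglandins, also did not overlap between the groups, with levels of -1.38 to -1.05 against -1.58 to -1.38 and a difference of -0.22 (SE 0.09, limma adjusted p = 0.373).

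Of the phospholipases and lipases, 10 genes were tested, and at 1 probe a gene Pla2g4e alone had an unadjusted p under 0.05. The dimmer Pla2g2d probe A_55_P2173897 had one as well (difference -0.69, SE 0.19, limma adjusted p = 0.201). Its groups did not overlap, as for 2.03% of all probes with 10 values in this direction. Its nPGC-1α levels were -6.34 to -5.60, and the floors of that group were -6.62 to -5.75. Replicate 3 of that group, at -5.81, lay below its floor of -5.75. Only the PGC-1αf/f arrays, where the probe was higher, took it past the filter, so nothing is read from its p or this separation. The dimmer Pla2g6 probe A_51_P464860 also had an unadjusted p under 0.05 (0.47, SE 0.21, limma adjusted p = 0.407). The brighter probes of these genes were at 0.12 and 0.22. Pla2g4e, a relative of Pla2g4a that makes N-acyl phospholipids, had levels of -4.05 to -3.66 against -3.74 to -2.68 and a difference of 0.62 (SE 0.19, limma adjusted p = 0.259). It was 0.78 on slide 1 and -0.04 between the replicates 5, and the second probe of the gene gave 0.04. Mgll, the monoacylglycerol lipase that supplies arachidonic acid in brain, was the brightest of this role at a difference of 0.02. Cotl1, a binding partner of 5-lipoxygenase, was at -0.01 and the prostaglandin D synthase Ptgds at -0.04. Mgst3, a microsomal glutathione transferase, was at 0.13, Ptgr2 at -0.06, the transporter Abcc4 at 0.17 and the epoxygenase Cyp2j9 at -0.10, without a value on PGC-1αf/f replicate 1. None of these 7 had an unadjusted p under 0.05.

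**Figure D3:**
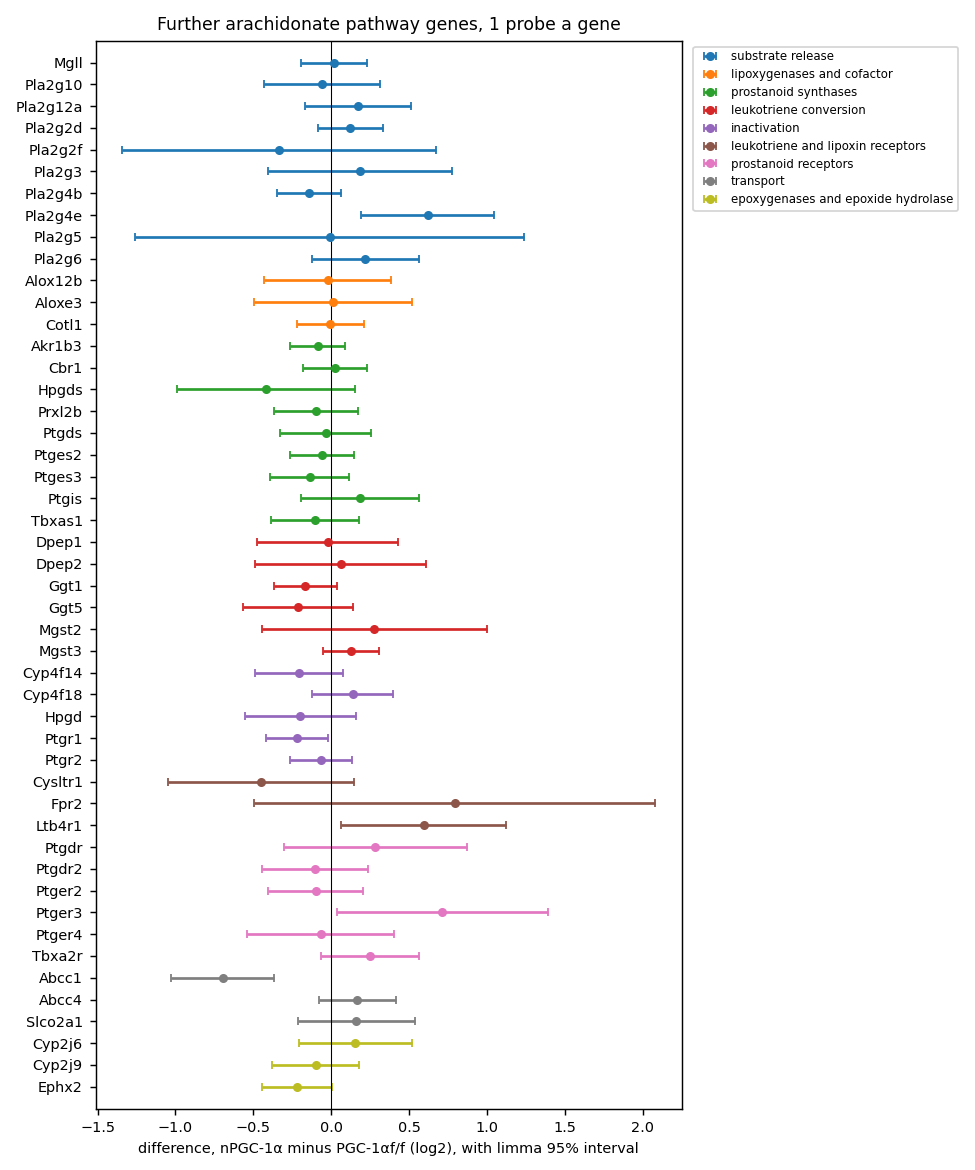
Difference (nPGC-1α minus PGC-1αf/f, log2) of the 48 tested further genes, 1 probe a gene, with limma 95% intervals and coloured by role. The intervals of Pla2g4e, Ltb4r1 and Ptger3 lie above 0 and those of Abcc1 and Ptgr1 below it, and the widest belong to Fpr2, Pla2g5 and Pla2g2f.

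Among receptors, Ltb4r1, the high-affinity receptor of leukotriene B4 on neutrophils, had a level of -3.61, -4.59, -4.45, -4.77 and -4.83 in PGC-1αf/f mice. It was -3.63, -4.05, -3.37, -4.23 and -4.02 in nPGC-1α mice. The groups overlapped, and the high PGC-1αf/f array was replicate 1. The difference was 0.59 (SE 0.24, limma adjusted p = 0.370). Fpr2, a receptor of lipoxin and formyl peptides on neutrophils, had a difference of 0.79 (SE 0.58, limma adjusted p = 0.612), with its highest levels in replicate 1 of the PGC-1αf/f mice (-1.86) and in nPGC-1α replicates 1 and 3 (-1.45 and -1.36). Ptger3, a prostaglandin E2 receptor of neurons, had a difference of 0.71 (SE 0.31, limma adjusted p = 0.397), which was 0.37 on slide 1 and 2.11 between the replicates 5. Ptger4, the brightest tested prostanoid receptor, was at -0.07.

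Markers of neutrophils are given beside Alox5, Ltb4r1 and Fpr2, whose means were higher in nPGC-1α mice. All 8 tested neutrophil markers had higher means in nPGC-1α mice, 2 of them with an unadjusted limma p under 0.05 (Ngp, a difference of 1.87, and Ltf, 1.60) and 0 with an adjusted one, beside 3.39% of all probes with an unadjusted p under 0.05 in this direction. The neutrophil score, the mean log2 deviation of the 8 markers, was 0.94, -0.55, -1.15, -2.17 and 0.26 in PGC-1αf/f replicates 1 to 5. It was 1.60, 0.60, 1.35, -0.54 and -0.13 in nPGC-1α replicates 1 to 5 (exact permutation p = 0.135). Among PGC-1αf/f arrays the higher scores of replicates 1, 5 and 2 went with the higher Alox5 levels. Among nPGC-1α arrays, replicate 1 had the highest score and the lowest Alox5 level. Replicate 3 had the next highest score and the highest Alox5 level (-3.51). The Alox5 levels of replicates 1, 2 and 5 were close, at -3.78, -3.75 and -3.74. With the score as a covariate, added after the data were seen, the Alox5 difference was 0.50, that of Ltb4r1 0.28 and that of Fpr2 -0.16. The mean score was itself 1.11 higher in nPGC-1α mice, so this covariate and the group are partly shared. The part of neutrophils was not tested. In whole tissue, more cells of a type and more RNA per cell cannot be told apart.

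**Figure D4:**
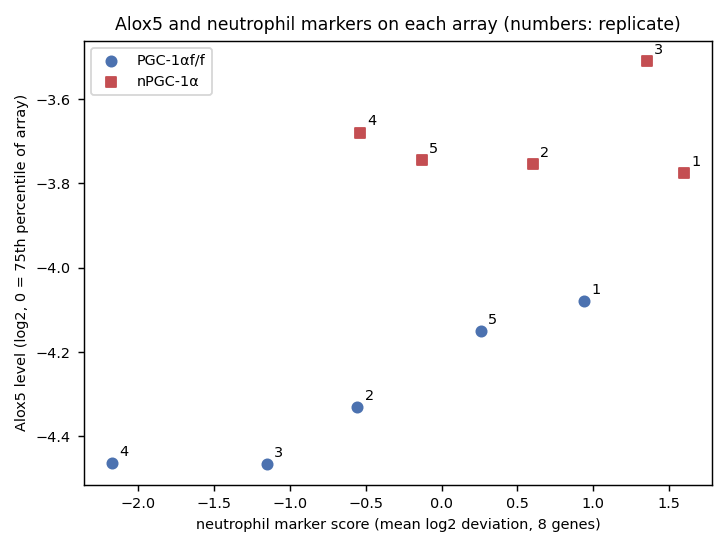
Alox5 level (log2, 0 = 75th percentile of the array) against the neutrophil marker score (mean log2 deviation of 8 genes) on each of the 10 arrays, with the replicate number beside each point. Scores run from -2.17 to 0.94 on the PGC-1αf/f arrays (blue circles) and from -0.54 to 1.60 on the nPGC-1α arrays (red squares), and Alox5 was chosen for the gap between the groups on the vertical axis.

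Markers of other cells that carry 5-lipoxygenase had overlapping scores. The microglial score was -0.23 to 0.19 in PGC-1αf/f mice and -0.17 to 0.11 in nPGC-1α mice, with 4 of 9 markers higher. That of border macrophages was -0.71 to 0.66 against -0.35 to 0.26, with 4 of 7 higher, and that of mast cells -0.20 to 0.75 against -0.31 to 0.46, with 1 of 4 higher. Single markers lay apart: Cd209f, of border macrophages, had levels of -2.96 to -2.005 against -4.14 to -3.59 (a difference of -1.32, SE 0.18, limma adjusted p = 0.061), and Tmem119, of microglia, had 0.22 to 0.54 against -0.06 to 0.20 (a difference of -0.21, SE 0.09, limma adjusted p = 0.407). Groups were apart in this direction for 2.03% of all probes with 10 values. Ms4a2, a defining gene of mast cells, was not well above background on any array. The mast cell markers Mcpt4 and Cma1 were each well above background on 5 PGC-1αf/f and 3 nPGC-1α arrays. They thus passed the filter only through the group where they were higher, and nothing is read from the mast cell count or score. Over all 13 marker lists, 0 had scores that did not overlap between the groups, and neurons had -0.09 to 0.11 against -0.11 to 0.13.

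The genes whose levels were most like those of Alox5 lay outside the pathway. Over the 10 arrays and 14894 named genes, the highest Pearson r with the Alox5 level belonged to Larp1b (0.92, Spearman rho 0.89), Tbx2 (0.91, 0.85), Slc16a3 (0.91, 0.84), Drd4 (0.91, 0.77) and Ccl21a (0.91, 0.95). These share the difference between the groups and the arrays themselves, so the coefficients are a description. On deviations from the group means, the highest belonged to Sh2d2a (0.95, rho 0.92), Klrg1 (0.95, 0.93), Entpd2 (0.93, 0.83), Neil3 (0.92, 0.95) and Tm7sf2 (0.92, 0.81). Among the 6 other members with a tested probe and values on all arrays, Lta4h had the highest r on deviations (0.69, rho 0.66) and Alox12 on levels (0.46, rho 0.33), and Alox5ap had 0.25 on levels (rho 0.13) and -0.11 on deviations (rho -0.10).

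**Figure D5:**
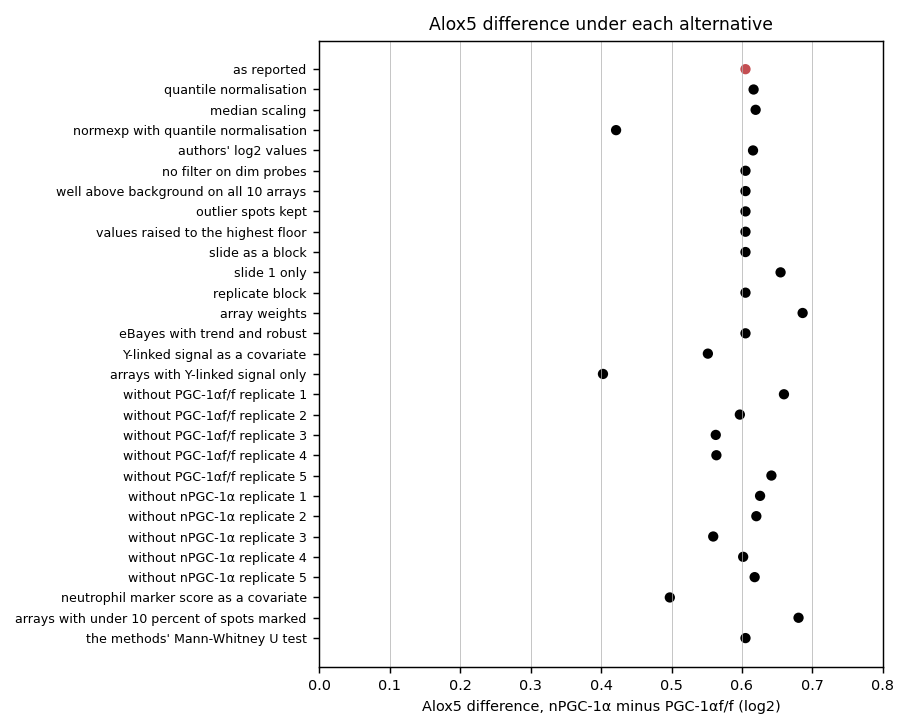
Alox5 difference (nPGC-1α minus PGC-1αf/f, log2) as reported (red) and under 28 alternatives of the processing (black), on an axis that starts at 0. The values run from 0.40, with only the arrays that have Y-linked signal, to 0.69, with array weights. Alternatives that change only the filter, the blocks or the test leave the estimate unchanged, and Alox5 was chosen on this difference.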

How the data were processed

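Gene expression was measured in hippocampi of 5 PGC-1αf/f mice and of 5 nPGC-1α mice, with groups and replicate numbers from the labels, and separate mice are the replicates. The deposited scanner files hold a processed intensity per spot, which Feature Extraction 11.5.1.1 (per the file headers) had corrected for background and which was not normalised between arrays. The methods name another version of that program. A deposited table of log2 values made by the authors correlated with the scanner values at 0.9987 to 1.0 per array, with column medians of 9.917 to 9.9278. It served as an alternative, and how its probes were chosen is not given in the sources used here.

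Of 62976 spots per array, 59305 were gene spots. Outlier spots were left out, no spot was saturated, spots of a probe were averaged in log2, and levels were set against the 75th percentile of their array by subtraction of its log2. Probes well above background on all arrays with a value of at least 1 group, with at least 3 values per group, were tested (39142 probes of 17597 named genes). RefSeq accessions named 33767 of 56605 probes (59.7%, RefSeq table of GRCm38.p6). Coordinates are given for promoter windows of that table only, since the array was designed on another build. The number of arrays limits the precision.

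Differences were tested with limma 3.58.1 (lmFit and eBayes, two-sided, no covariates) in R 4.3.3, with Benjamini-Hochberg adjustment over all probes tested. Single scores were compared with exact two-sided permutation tests, whose smallest p here is 0.00794. The fit was tested on simulated data. Files were read with Python 3.11.15. For a gene of several probes, the brightest tested probe stood for the gene in the list of further genes. The text names all 10 genes, the further genes with a tested probe at an unadjusted p under 0.05, and the brightest gene of each role. It also names the 5 genes most correlated with Alox5 on levels and on deviations. The members, the gene lists and the markers were chosen with earlier results of these data known. The neutrophil score as a covariate, and the use of only the arrays with few outlier spots, were added after the data were seen.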

Additional observations from a re-analysis of the deposited data

How the results depend on the processing

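The Alox5 difference was 0.56 to 0.66 when each array was left out in turn, and 0.40 to 0.69 over all 28 alternatives. Those that change only the filter, the blocks or the test left this estimate unchanged. As the gene was chosen on this difference, nothing is read from these ranges. None of the alternatives brought a probe of the other 9 genes past the adjusted threshold. At an unadjusted p of 0.05, 2 member probes passed with no filter on dim probes (Alox15 and the second Alox12 probe, both near background). In 6 further alternatives 1 passed: Ptges A_55_P1974193 with values raised to the highest floor and by the methods' Mann-Whitney U test (exact), Ptges A_55_P1974189 with the replicate block, Alox12 with Y-linked signal as a covariate, Alox5ap A_66_P105854 without nPGC-1α replicate 4, and Lta4h with the neutrophil covariate. Leaving out single arrays gave 0 to 1. Further pathway probes past the adjusted threshold were 6 with no filter, against 0, where 4619 of all probes passed. Besides Abcc1 they were probes of Pla2g1b, Pla2g2e, Pla2g4c, Pla2g10 and Ltb4r2, each well above background on 0 arrays. At the unadjusted p, further pathway probes were 14 with no filter, 4 on slide 1 and 11 with the replicate block, against 7. They were 3 by the Mann-Whitney U test and 3 to 8 with single arrays left out. The lowest was without nPGC-1α replicate 3, and without PGC-1αf/f replicate 2 or nPGC-1α replicate 1 they were 4.

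Over all probes, the 1 passing the adjusted threshold became 40 with median scaling, 4619 with no filter, 10 with array weights, 4 on arrays with Y-linked signal, and 0 to 3 with single arrays left out. It became 0 with normexp, with probes above background on all 10 arrays, with values raised to the floor, with slide or replicate as a block, with eBayes trend and robust, with either covariate, on arrays with few outlier spots and by the Mann-Whitney U test. At the unadjusted p, 4662 became 10748 with no filter, 2950 by the Mann-Whitney U test and 3102 to 6034 with single arrays left out, the lowest without PGC-1αf/f replicate 2. The cause was not tested, except that no filter adds dim probes.

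Leaving out single arrays kept the sign but moved Fpr2 from 0.49 (without nPGC-1α replicate 3) to 1.17 (without PGC-1αf/f replicate 1), Alox5ap A_51_P235687 from 0.081 (without PGC-1αf/f replicate 5) to 0.27 (without nPGC-1α replicate 5) and Ptges A_55_P1974189 from 0.15 to 0.41 (without the same arrays). Small differences changed sign. On arrays with Y-linked signal only, with 1 PGC-1αf/f array, they were -0.29 for Pla2g4a, -0.0041 for Alox5ap A_51_P235687, -0.018 for Ltc4s, -0.26 for Ptges A_51_P312327, -0.061 for Ptges A_55_P1974189, -0.11 for Mgll, 0.13 for Cotl1, 0.038 for Ptgr2, -0.061 for Ltb4r1 and -0.21 for Fpr2. With Y-linked signal as a covariate they were -0.066 for Ltc4s, 0.042 for Ptgs1, 0.076 for Ptgs2 and -0.031 for Mgll. With the neutrophil covariate they were -0.067 for Pla2g4a, 0.071 for Ptgs1, 0.11 for Ptgs2, -0.042 for Mgll, 0.031 for Cotl1 and -0.16 for Fpr2. On the 8 arrays with few outlier spots they were 0.0115 for Ptgs2, -0.0010 for Mgll, 0.0033 for Ptgds and 0.074 for Ptger4. Ltc4s was -0.023 on slide 1 and -0.10 with array weights, where Ptger4 was 0.097. Cotl1 was 0.031 with quantile normalisation, 0.0095 with median scaling, 0.025 with normexp and 0.029 in the authors' values. Ptgds was 0.082 with quantile normalisation, 0.067 with normexp and 0.083 in the authors' values. With single arrays left out, the ranges were -0.0155 to 0.15 for Pla2g4a, -0.11 to 0.099 for Ltc4s, -0.21 to 0.0175 for Ptgs1, -0.17 to 0.026 for Ptgs2, -0.032 to 0.17 for Ptges A_51_P312327, -0.039 to 0.056 for Mgll, -0.047 to 0.0445 for Cotl1, -0.12 to 0.054 for Ptgds and -0.17 to 0.13 for Ptger4.

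Whether replicate numbers pair the samples is not given by the labels. Deviations of same-numbered arrays correlated at 0.215, 0.078, 0.113, 0.18 and 0.356, all above 0 and 4 of 5 above 0.1, and for 3 of 5 numbers the best match was the same number. Same-numbered arrays of slide 1 also shared a slide column. They were treated as unpaired because 1 correlation was under 0.1. With the replicate block, Ptgs2 was 0.065, 6486 probes had an unadjusted p under 0.05, and 0 passed the adjusted threshold.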

Other observations

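Further members of the pathway could not be followed on these arrays. Of the 64 further genes, 14 had a probe but were not tested, and Cyp2j12 and Cyp2c44 were without a named probe. Probes of Pla2g1b, Pla2g2e, Pla2g4f, Ltb4r2 (the second leukotriene B4 receptor) and Gpr31b were well above background on 0 arrays. Those of Cysltr2 and Oxgr1, receptors of cysteinyl leukotrienes, were so on 2 arrays, and that of the lipoxygenase Alox12e on 4. The probe of Alox8 had values on 4 arrays, well above background on each, and was an outlier spot on the other 6. The prostanoid receptors Ptger1 and Ptgir reached 6 arrays and Ptgfr 4.

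Some of the genes are neighbours in the RefSeq annotation. Pla2g4a and Ptgs2 lie on chromosome 1 with 2 entries and 0 protein-coding genes between them, and both had differences within 0.07 of 0, at 0.07 and -0.06. Alox12 and Alox15 lie on chromosome 11 with 4 entries between them, 1 of them protein-coding (Alox12e).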
